A study of Mus musculus with 9 samples.

Results

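Claudins and their partners seal the space between neighbouring epithelial cells, and 9 of their genes were followed here through 9 mammary tumours: the claudin genes Cldn1, Cldn3, Cldn4, Cldn7 and Cldn8, the occludin gene Ocln, the scaffold genes Tjp1 and Tjp3 (ZO-1 and ZO-3) and F11r, which encodes junctional adhesion molecule A. They were chosen by symbol for their place in the tight junction, with earlier results of these data known, and are 9 of the 18484 genes with RNA sequencing counts. All tumours came from BlgCre-NeuKI mice on a mixed FVB and C57Bl6 background, in which a Cre recombinase under the Beta-lactoglobulin promoter, active in luminal oestrogen receptor-negative mammary cells, removes a stop cassette from an activated rat Neu allele knocked into 1 copy of the endogenous Erbb2 locus. By histotype they were 6 adenocarcinomas of no special type, AC(NST), 2 metaplastic adenosquamous carcinomas, ASQC, and 1 mammary sarcoma. By copy number of the Erbb2/Neu locus, 5 AC(NST) were labelled high-amplified: virgin mice gave MS1213.1, MS1163.1 and MS1163.2, and parous mice gave MS1218.2 and MS1155.3. The AC(NST) MS1166.1, the ASQC tumours MS1210.1 and MS1349.1 and the sarcoma MS1156.1, all from parous mice, were labelled not/low-amplified. In MS1349.1 the study's droplet PCR on tumour DNA found no evidence of loss of the stop cassette or of locus amplification. Ages of the mice were not used here, each tumour gave 1 library of whole frozen tissue, and normal mammary gland was not analysed here.

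Tight junctions form a belt near the apex of epithelial cells. Claudins set which ions and molecules pass between cells, occludin and the junctional adhesion molecules sit in the same strands, and the ZO proteins tie the strands to the actin cytoskeleton. In the mammary gland this barrier keeps milk in the alveoli and ducts, and claudins 3, 4 and 7 are typical of its luminal cells. The factors of the Snail and Zeb families are known to repress claudin, occludin and E-cadherin genes, while grainyhead-like factors are known to maintain them.

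Total counts ran from 12501225 to 23912429 per tumour. Values below are normalized counts, that is counts divided by a size factor set on the 8 epithelial tumours, and counting error covers the reads alone. Erbb2 itself lay between 5284 and 105019 in the 5 high-amplified tumours and between 1532 and 2783 in the 3 not/low-amplified epithelial tumours, so the groups did not overlap. Summed over 7 luminal epithelial markers (Krt8, Krt18, Krt19, Epcam, Cdh1, Gata3 and Elf5), the level was 33992 to 132091 in the epithelial tumours and 468 in the sarcoma. MS1218.2 stood apart by summed levels of 517865 for 9 mesenchymal and 12866 for 6 endothelial markers. The other 7 epithelial tumours had at most 142032 and 5325. The study's purity estimate from RNA excepted MS1218.2 from the high tumour cell content it gave for the other samples. Its assays of DNA copy number disagreed on MS1218.2 and on MS1213.1. MS1163.1 and MS1163.2 carry the same mouse number. No 2 libraries held identical counts. Nothing in the labels marks a batch.

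Cldn3 and Cldn4 lie side by side on chromosome 5 on opposite strands, 39279 bases apart and with no other gene of the files between them, and behaved unlike each other in the epithelial tumours, whereas Cldn1 was the 1 of the 5 claudins that the sarcoma retained. The 250 bases before their start sites are therefore shown, from the RefSeq annotation of GRCm38.p6, 5′ to 3′ on the gene's strand (Cldn3 at chr5:134985964-134986213, plus strand; Cldn4 at chr5:134946935-134947184, minus strand; Cldn1 at chr16:26371840-26372089, minus strand). Capitals mark CAGGTG or its reverse complement CACCTG, the E-box that Snail and Zeb factors can bind.
Cldn3: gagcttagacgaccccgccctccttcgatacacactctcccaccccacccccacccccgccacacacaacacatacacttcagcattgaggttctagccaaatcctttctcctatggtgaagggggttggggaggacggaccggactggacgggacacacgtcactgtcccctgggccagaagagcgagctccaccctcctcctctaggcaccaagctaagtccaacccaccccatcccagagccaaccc
Cldn4: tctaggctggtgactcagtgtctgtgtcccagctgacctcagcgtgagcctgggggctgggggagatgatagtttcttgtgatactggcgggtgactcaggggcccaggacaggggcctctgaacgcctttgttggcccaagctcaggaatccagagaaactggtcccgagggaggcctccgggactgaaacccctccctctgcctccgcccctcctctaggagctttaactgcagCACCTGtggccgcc
Cldn1: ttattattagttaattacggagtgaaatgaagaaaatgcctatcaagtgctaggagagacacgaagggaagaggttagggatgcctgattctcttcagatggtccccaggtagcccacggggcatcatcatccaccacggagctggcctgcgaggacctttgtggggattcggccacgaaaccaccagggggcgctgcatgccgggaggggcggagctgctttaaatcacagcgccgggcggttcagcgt

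The E-box of Cldn4 spans bases 14 to 9 before the start site, while the windows of Cldn3 and Cldn1 hold none. Of the 9 genes, 8 matched the promoter table. Cldn8 did not. Their 11 windows (Cldn7, Ocln and Tjp3 have a pair each) held the E-box on either strand in 6 windows of 5 genes, Cldn4, Cldn7, Ocln, Tjp3 and F11r. Over all 32851 windows the share with an E-box was 17.2%, and 19.4% of the 27025 genes had a window with one. A grainyhead element (AACCNGTT, either strand) was in none of the 11 windows and in 1.79% of all windows. These are matches of letters, which say nothing about binding in these tumours.

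In 4 of the 5 claudin genes every not/low-amplified epithelial tumour had a higher level than every high-amplified tumour, which held for 8.04% of all genes tested by amplification label. In none of the 5 did both ASQC tumours exceed every AC(NST), which held for 6.30% of all genes tested by histotype, as the plot of all 9 genes by tumour shows. Values in the high-amplified tumours are given in the order MS1213.1, MS1163.1, MS1163.2, MS1218.2 and MS1155.3. Cldn4 (ENSMUSG00000047501; GRCm38 chromosome 5, 134945119 to 134946934), a claudin that lowers sodium passage, had normalized counts of 1488, 510.0, 3368, 2623 and 1421 in the high-amplified tumours, 10013 in MS1166.1, 8631 in MS1210.1 and 14451 in MS1349.1. The AC(NST) tumour without high amplification thus lay between the ASQC tumours, and every high-amplified tumour lay below all 3. The spread within the high-amplified tumours was wide, since MS1163.1 and MS1163.2, which share a mouse number, differed 6.60-fold.

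Cldn3 (ENSMUSG00000070473; chromosome 5, 134986214 to 134987472), a sealing claudin, varied less. It had normalized counts of 2912, 4038, 4212, 7761 and 4581 in the high-amplified tumours, 11934 in MS1166.1, and 6249.8 and 6351 in MS1210.1 and MS1349.1. MS1218.2 was above both ASQC tumours, so neither histotype nor amplification separated the tumours. MS1163.1 and MS1163.2, so unlike in Cldn4, differed 1.04-fold in Cldn3. Its exon overlaps 40 bases of the antisense gene Wbscr25, which is 3.18% of its length.

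Cldn7 (ENSMUSG00000018569; chromosome 11, 69964779 to 69967885), a claudin that also lies along the sides of the cell, stayed within a narrow band in the high-amplified tumours. Its normalized counts there were 1219, 1443, 1473, 1937 and 1570.2, against 4387 in MS1166.1, 2429 in MS1210.1 and 2774 in MS1349.1. MS1166.1 was above both ASQC tumours, which were above every high-amplified tumour.

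Cldn8 (ENSMUSG00000050520; chromosome 16, 88560828 to 88563183), a partner of claudin 4 in kidney tubules, had the lowest median of the 9 genes over the epithelial tumours and the widest span from lowest to highest as a ratio. MS1349.1 was an exception to its low rank. Its normalized counts were 130.0, 71.4, 169, 76.8 and 100.5 in the high-amplified tumours, 786 in MS1166.1, 196 in MS1210.1 and 2377 in MS1349.1. The ASQC tumours therefore differed more from each other than MS1210.1 did from the high-amplified tumours.

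Cldn1 (ENSMUSG00000022512; chromosome 16, 26356642 to 26371841), which is needed for the barrier of the epidermis, had normalized counts of 1839, 2344, 2698, 1430.2 and 2651 in the high-amplified tumours. It had 3827 in MS1166.1, 3846 in MS1210.1 and 3700.5 in MS1349.1, 3 values closer together than those of any other of the 9 genes in these tumours and all above the high-amplified range.

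**Figure D1:**
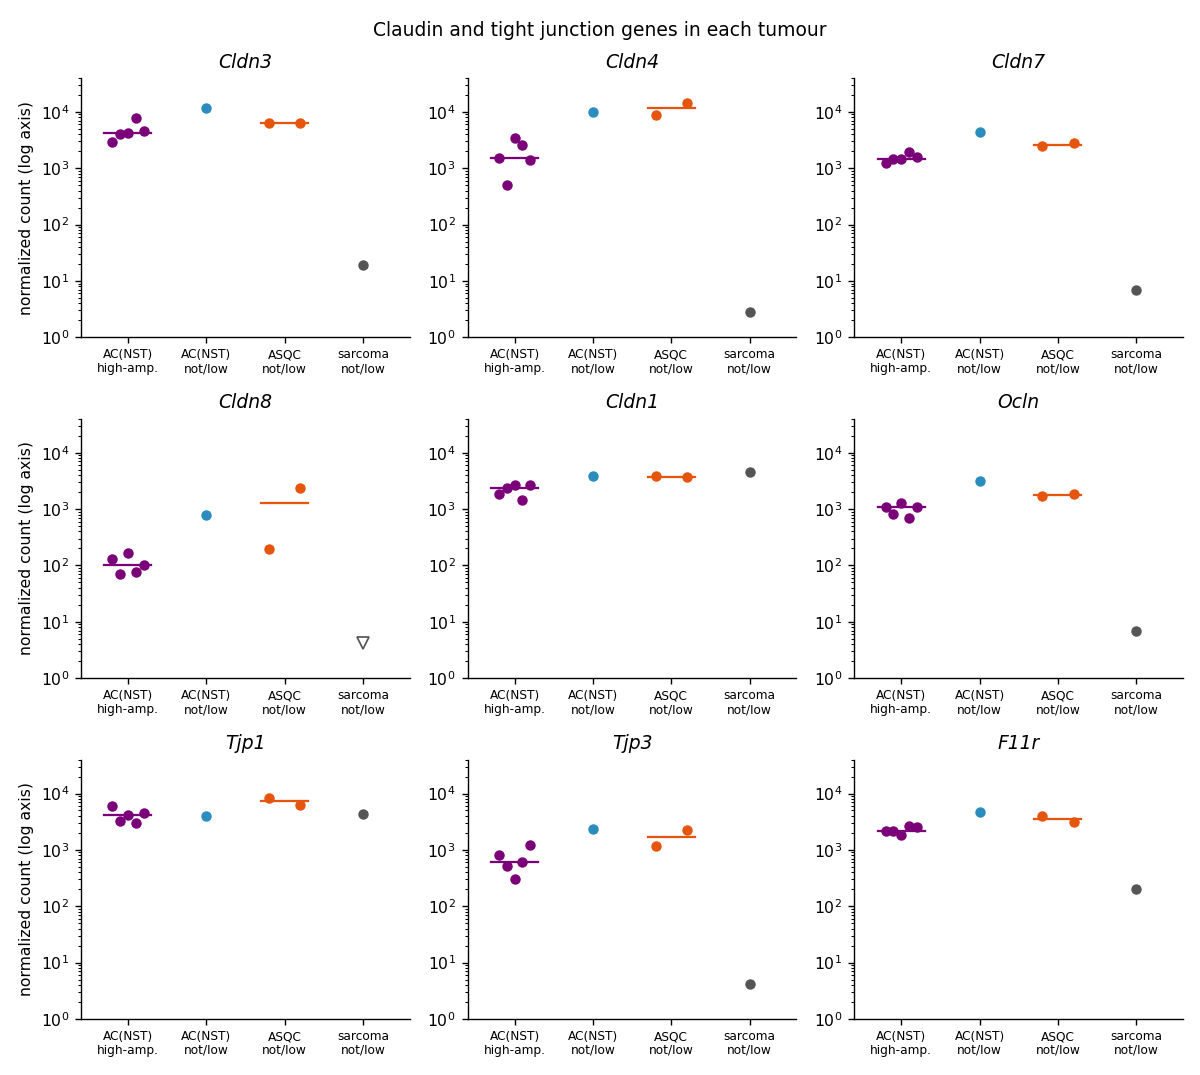
Normalized counts (log axis) of the 9 genes, 1 point per tumour, in the high-amplified AC(NST) (n = 5), the not/low-amplified AC(NST), the ASQC tumours (n = 2) and the sarcoma; lines are group medians and the open triangle stands for 0 counts, drawn at the level of 3 counts. In 6 genes (Cldn1, Cldn4, Cldn7, Cldn8, Ocln and F11r) each not/low-amplified epithelial tumour lies above each high-amplified tumour, against 8.04% of all genes tested, and the sarcoma lies far below in all but Cldn1 and Tjp1.

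The other strand proteins followed the pattern of Cldn7. Ocln (ENSMUSG00000021638; chromosome 13, 100496507 to 100552718), which encodes occludin, had normalized counts of 1086, 806, 1302, 693 and 1097 in the high-amplified tumours, 3174 in MS1166.1 and 1687 and 1856 in MS1210.1 and MS1349.1. F11r (ENSMUSG00000038235; chromosome 1, 171437535 to 171464603), whose product recruits polarity proteins to young junctions, had 2139.9, 2122, 1809, 2706 and 2498, then 4771, and then 4019 and 3150.4 in the same order. In both genes MS1166.1 was the highest of the 8 epithelial tumours and the high-amplified tumours were the lowest 5 of them.

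The scaffold genes differed from each other. Tjp3 (ENSMUSG00000034917; chromosome 10, 81273207 to 81291581) had normalized counts of 813, 526, 299.5, 599 and 1217 in the high-amplified tumours, 2305 in MS1166.1 and 1169.6 and 2267 in MS1210.1 and MS1349.1, so that MS1155.3 was just above MS1210.1. Tjp1 (ENSMUSG00000030516; chromosome 7, 65296165 to 65527781) had 5969, 3234, 4224, 2988 and 4520.0, then 4039.6 in MS1166.1, and 8403 and 6293 in the ASQC tumours. Tjp1 was the 1 gene of the 9 in which MS1166.1 lay within the high-amplified range and in which both ASQC tumours exceeded every AC(NST).

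Per kilobase of exon, a scale on which genes can be set beside each other, Cldn3 had the highest median over the 8 epithelial tumours (4301, range 2313 to 9479), followed by Cldn4 (1649, range 281 to 7957), F11r (977, range 679 to 1792) and Cldn7 (900.1, range 626 to 2252). Tjp1 (559.7) and Cldn1 (552) came next, then Ocln (284) and Tjp3 (267), and Cldn8 was last (63.5, range 30.3 to 1009). These medians pool tumours of different groups, the ranges of all neighbours in this order overlapped, and the order was not fixed from tumour to tumour. Cldn4, at 281 per kilobase in MS1163.1, was below F11r (797), Cldn7 (741), Cldn1 (484) and Tjp1 (414) in that tumour. In MS1349.1 Cldn4 was above Cldn3 (7957 against 5045), and Cldn8, at 1009, was above Tjp1 (806), Cldn1 (764), Tjp3 (610.4) and Ocln (440).

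Between histotypes, all 9 genes had a higher fitted level in the 2 ASQC than in the 6 AC(NST) tumours, and none was called at an adjusted p under 0.05 and a fold change over 2 (edgeR's quasi-likelihood test, adjusted over 14517 genes). Over all these genes, 1.01% were called higher in ASQC and 0.0207% lower. The largest difference was that of Cldn8, whose mean was 1286 ± 1542 (SD, n = 2) in ASQC and 222 ± 279 (SD, n = 6) in AC(NST), for a log2 fold change of 2.56 (95% interval 0.40 to 4.72, adjusted p = 0.420, edgeR). It rested on MS1349.1: without that tumour the log2 fold change was −0.16. Cldn4 had 11541 ± 4115 against 3237 ± 3467, a log2 fold change of 1.86 (95% interval 0.02 to 3.69, adjusted p = 0.509, edgeR). Tjp1 had 7348 ± 1492 against 4162 ± 1063, a log2 fold change of 0.82 (95% interval 0.04 to 1.60, adjusted p = 0.488, edgeR), and was the 1 gene of the 9 without overlap between the histotypes, which holds for 6.30% of all genes tested in this direction. These 3 genes had an unadjusted p under 0.05. For Cldn3 the means were 6300.4 ± 71.7 and 5906 ± 3372, and the interval of the log2 fold change, −1.07 to 1.28, spans changes of more than 2-fold either way. DESeq2 also called none of the 8 genes for which it gave a p-value. The 8 basal or squamous markers (Krt5, Krt14, Krt6a, Krt1, Krt10, Trp63, Lor and Ivl) summed to 10947 and 70373 in the ASQC tumours and to 90.2 to 6592 in AC(NST), with 7 of them free of overlap, and their part in the differences of the 9 genes was not tested.

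The wide spread of AC(NST) came from MS1166.1 in most of the genes. With it left out, which turns the comparison into ASQC against high-amplified AC(NST), the log2 fold changes of all genes but Tjp1 rose, and Cldn8 was called (3.56, adjusted p = 0.0476, edgeR). Histotype and amplification label cannot be told apart in that subset. With amplification label as a covariate, the log2 fold changes for ASQC were −0.88 for Cldn3, −0.71 for Cldn7, −0.80 for Ocln, −0.38 for Tjp3 and −0.37 for F11r, and 0.90 for Tjp1, 0.76 for Cldn8, 0.25 for Cldn4 and 0.02 for Cldn1. None of them was called, and the part that belongs to histotype is set there by the single contrast of the ASQC tumours with MS1166.1.

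**Figure D2:**
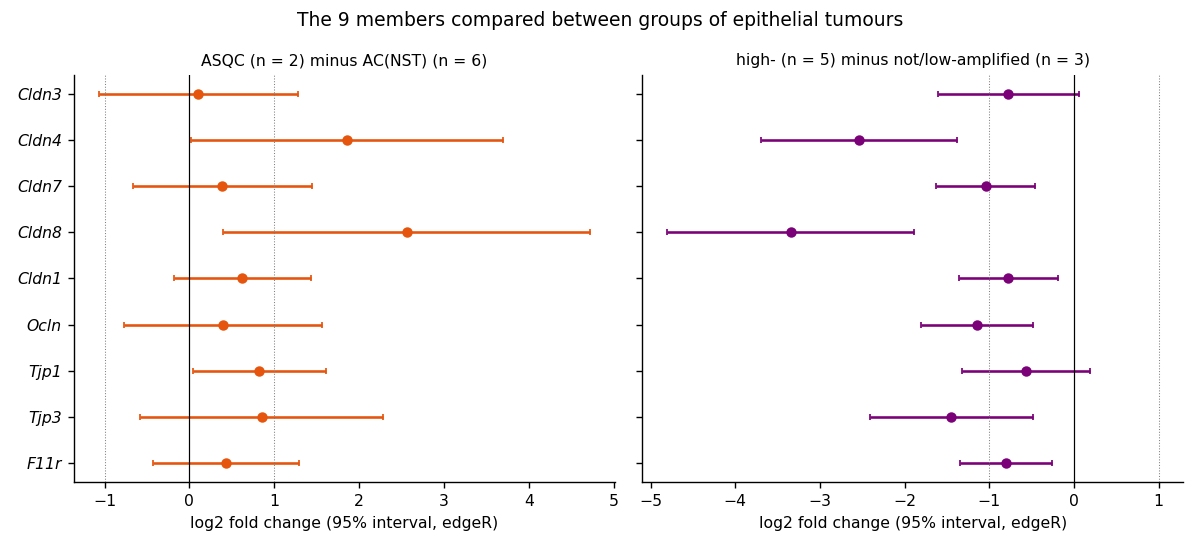
Log2 fold changes with 95% intervals from edgeR for the 9 genes, ASQC minus AC(NST) on the left and high-amplified minus not/low-amplified epithelial tumours on the right; dotted lines mark a 2-fold change. Cldn8 (2.56 and −3.35) and Cldn4 (1.86 and −2.54) differ most in both, and on the right the intervals of all genes but Cldn3 and Tjp1 lie below 0.

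Between amplification labels, all 9 genes had a lower fitted level in the 5 high-amplified than in the 3 not/low-amplified epithelial tumours, with 7 of the 9 at an unadjusted p under 0.05, against 11.0% of all 14007 genes tested in this direction. None of the 9 was called after adjustment by edgeR, which called 0.485% of all genes lower and 0.435% higher in the high-amplified tumours. With MS1163.1 and MS1163.2, which share a mouse number, summed to 1 sample, edgeR called Cldn4 (−2.57, adjusted p = 0.0466). DESeq2, which called 4.54% of all genes lower, called 5 of the 9, namely Cldn4, Cldn7, Cldn8, Ocln and Tjp3. For Cldn8 the mean normalized count was 109.5 ± 40.5 (SD, n = 5) with high amplification and 1119.7 ± 1128 (SD, n = 3) without, and its log2 fold change of −3.35 (95% interval −4.81 to −1.89) missed the threshold narrowly (adjusted p = 0.0510, edgeR). Cldn4 had 1882 ± 1119 against 11032 ± 3041, a log2 fold change of −2.54 (95% interval −3.70 to −1.39, adjusted p = 0.0544, edgeR), or a 5.83-fold higher fitted level without high amplification. These claudins stood apart from the other 7 genes, whose fitted differences were under 3-fold. Next came Tjp3 with a log2 fold change of −1.45 (adjusted p = 0.104, edgeR), Ocln with −1.15 (adjusted p = 0.0815, edgeR) and Cldn7 with −1.04 (adjusted p = 0.0797, edgeR). F11r, Cldn1 and Cldn3 lay between −0.80 and −0.78, and Tjp1 was last at −0.56 (95% interval −1.32 to 0.19, adjusted p = 0.343, edgeR). The median over the 9 genes was −1.04, against 0.02 over all genes tested. In 6 of the 9 every not/low-amplified tumour was above every high-amplified tumour, which held for 8.04% of all genes tested.

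Which of these genes passed depended on single tumours and on the model. Without MS1218.2, the tumour high in mesenchymal and endothelial markers, edgeR called 4 of the 9 lower in the high-amplified tumours, Cldn4 (−2.69, adjusted p = 0.0296), Cldn7 (−1.14, adjusted p = 0.0286), Cldn8 (−3.24, adjusted p = 0.0371) and Ocln (−1.04, adjusted p = 0.0465), and the genes called over the whole set rose from 61 to 751 higher and from 68 to 504 lower. Without MS1210.1 the whole set had 0 and 1. Without MS1213.1, the other tumour on which the copy number assays disagreed, it had 27 and 10 and none of the 9 was called (Cldn8 −3.42, adjusted p = 0.0950, and Cldn4 −2.47, adjusted p = 0.106, edgeR). Within AC(NST), where MS1166.1 is the lone not/low-amplified tumour and is assumed to vary like the others, the log2 fold changes were −2.87 for Cldn8, −2.44 for Cldn4, −1.76 for Tjp3, −1.70 for Ocln, −1.54 for Cldn7 and −1.36 for Cldn3, with Tjp1 at 0.02 (adjusted p 0.0621 to 0.984 over the 9 genes, edgeR). Within parous mice, 2 high-amplified against 3 not/low-amplified tumours, the log2 fold changes were −3.61 for Cldn8, −2.39 for Cldn4 and −0.34 for Cldn3, and no gene of the whole set was called.

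Most of the luminal markers moved with this comparison. The summed level of all 7 was 33992 to 52320 in the high-amplified and 77069 to 132091 in the not/low-amplified epithelial tumours. In the former, 6 of the 7 had a lower fitted level. Of these, 3 (Krt8, Krt19 and Cdh1) did not overlap, against 8.04% of all genes tested, while Krt18, Epcam and Elf5 did. Gata3 went the other way, at 826 to 2947 in the high-amplified and 632 to 1077 in the not/low-amplified epithelial tumours. None of the 7 was called. The summed mesenchymal markers ran from 52564 to 517865 and from 48489 to 133284, and those of 8 basal or squamous markers from 90.2 to 4027 and from 6592 to 70373. The 6592, in MS1166.1, was nearly all Krt14 (6495), while its Krt5 (11.9) and Trp63 (13.1) were the lowest of the 8 epithelial tumours. Of the 8 basal or squamous markers, 2 did not overlap, and none of the 5 tested was called. The part of these markers in the differences of the 9 genes was not tested, and in whole tumour tissue fewer cells of a type and less RNA per cell cannot be told apart.

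Between parous and virgin mice, the remaining label, the 9 genes had higher fitted levels in the 5 tumours from parous mice and none was called. EdgeR called 0 of 14007 genes in either direction, so 0% were called higher, and 1984 genes had an unadjusted p under 0.05. By DESeq2, 417 genes were called higher and 94 lower, none of the 9 among them. At an unadjusted p under 0.05, 5 of the 9 were higher in tumours of parous mice (Cldn3, Cldn4, Cldn7, Tjp3 and F11r), against 8.57% of all genes. All 3 tumours of virgin mice were high-amplified. MS1163.1 and MS1163.2 are among them and share a mouse number, so the virgin group does not stand for 3 independent mice. Within the high-amplified tumours, 2 parous against 3 virgin, Cldn4 had a log2 fold change of 0.22 (adjusted p = 0.929, edgeR) and Cldn8 of −0.45 (adjusted p = 0.802, edgeR), against 2.05 (adjusted p = 0.337, edgeR) and 2.52 (adjusted p = 0.359, edgeR) over all 8 tumours. Cldn3, Tjp3, F11r and Cldn7 stayed higher in parous mice in every alternative fit, this subset included. Their lowest log2 fold changes over these fits were 0.74, 0.73, 0.37 and 0.36, and none of them was called.

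The mix of claudins also differed between tumours. Summed over the 23 claudin genes of the files, the level per kilobase was 4498 to 9633 in the high-amplified tumours and 12158, 16596 and 19008 in MS1210.1, MS1349.1 and MS1166.1. Cldn3 made up the most in each AC(NST), 45.8% to 64.0%. The share of Cldn4 was 4.01% to 26.7% in the high-amplified tumours, 29.0% in MS1166.1, 39.1% in MS1210.1 and 47.9% in MS1349.1, the 1 tumour in which Cldn4 led. Per kilobase, Cldn4 stood at 0.0876 to 0.554 of Cldn3 in the high-amplified tumours, at 0.582 in MS1166.1, and at 0.957 and 1.58 in the ASQC tumours. Thus the order of the tumours by this ratio followed both labels, with the 1 not/low-amplified AC(NST) between the high-amplified and the ASQC tumours, a description without a test. Cldn7 kept a share of 8.58% to 13.9% in all 8.

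**Figure D3:**
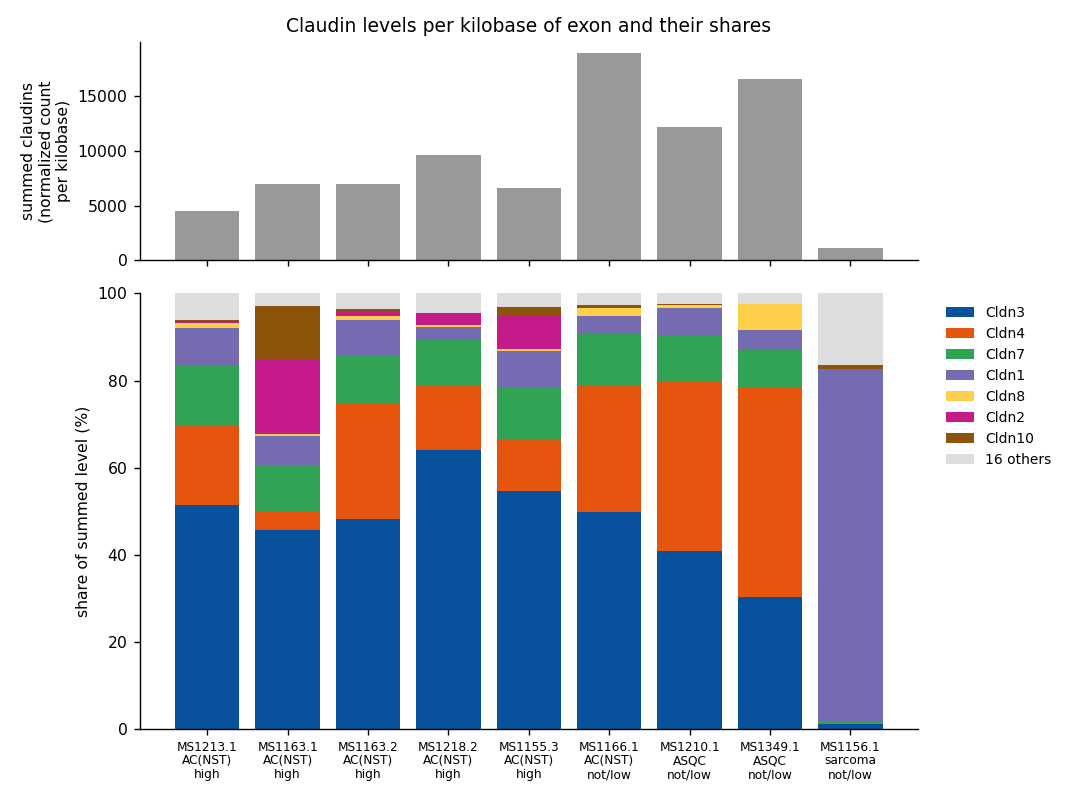
Summed level of the 23 claudins per kilobase of exon (top) and share of each in that sum (bottom), by tumour. Cldn3 has the largest share in each AC(NST) and Cldn4 in MS1349.1 (47.9%), Cldn2 and Cldn10 are visible in MS1163.1 (17.1% and 12.3%), and Cldn1 makes up 80.9% of the much smaller sum in the sarcoma.

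Among the other claudins, Cldn2, which forms a pore for sodium and water, ran the opposite way to the 9 genes. It had normalized counts of 75.1, 3986, 178, 920.2 and 1684 in the high-amplified tumours and of 14.3 in MS1166.1, 14.1 in MS1210.1 and 19.0 in MS1349.1, without overlap. Its log2 fold change was 6.44 (95% interval 3.31 to 9.57, adjusted p = 0.0614, edgeR; called by DESeq2). The pair MS1163.1 and MS1163.2 differed 22.4-fold in Cldn2 and 15.6-fold in Cldn10, a channel-forming claudin that reached 2229 in MS1163.1 and lay between 5.55 and 323 in the other epithelial tumours. Cldn23 moved like the 9 genes, at 15.7 to 61.6 in the high-amplified and 168 to 343 in the other epithelial tumours (−2.32 on the log2 scale, adjusted p = 0.0579, edgeR; called by DESeq2). Cldn12 varied little, from 420.3 to 815, and Cldn5, the claudin of endothelium, was highest in MS1218.2 at 377, against at most 143 in the other 7, where endothelial markers were also highest.

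The lists of other tight junction genes were split. That name is used broadly here, since 23 of the genes are junction regulators: transcription factors, E-cadherin, catenins, Epcam, and proteases with their inhibitors. Of 79 genes matched in the files, 66 were tested by amplification label: 4 were called lower in the high-amplified tumours, 1 was called higher, and the median log2 fold change was −0.13. Over all genes tested, 0.485% were called lower and 0.435% higher. Those lower were Pard6b and Pard6g, which encode subunits of the Par polarity complex (log2 fold changes −1.56 and −1.98, adjusted p = 0.0421 and 0.0301, edgeR), and the epithelial transcription factors Ovol1 (−2.45, adjusted p = 0.0362, edgeR) and Grhl3 (−5.24, adjusted p = 0.0389, edgeR). Pard6b had 130.5 to 259 normalized counts in the high-amplified and 546 to 652 in the not/low-amplified tumours, and Pard6g 67.6 to 146 and 359 to 479. Ovol1 had 47.2 to 151 and 377 to 769, and Grhl3, whose product drives epidermal barrier formation, 2.78 to 43.8 and 127 to 814. Cgnl1, which encodes paracingulin, a cytoplasmic linker of the junction, was the 1 called higher, at 7759 to 13834 against 1840.4 to 2673 (log2 fold change 2.24, adjusted p = 0.0287, edgeR). None of the 5 was called with parity as a covariate, where edgeR called 0 genes in all, or with the MS1163 tumours summed, and each lost its call with 5 to 7 of the 8 tumours left out in turn. By list, the median log2 fold change was 0.61 over 6 other claudins, 0.23 over 11 other transmembrane proteins, −0.02 over 26 scaffold and polarity proteins and −0.59 over 23 junction regulators.

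**Figure D4:**
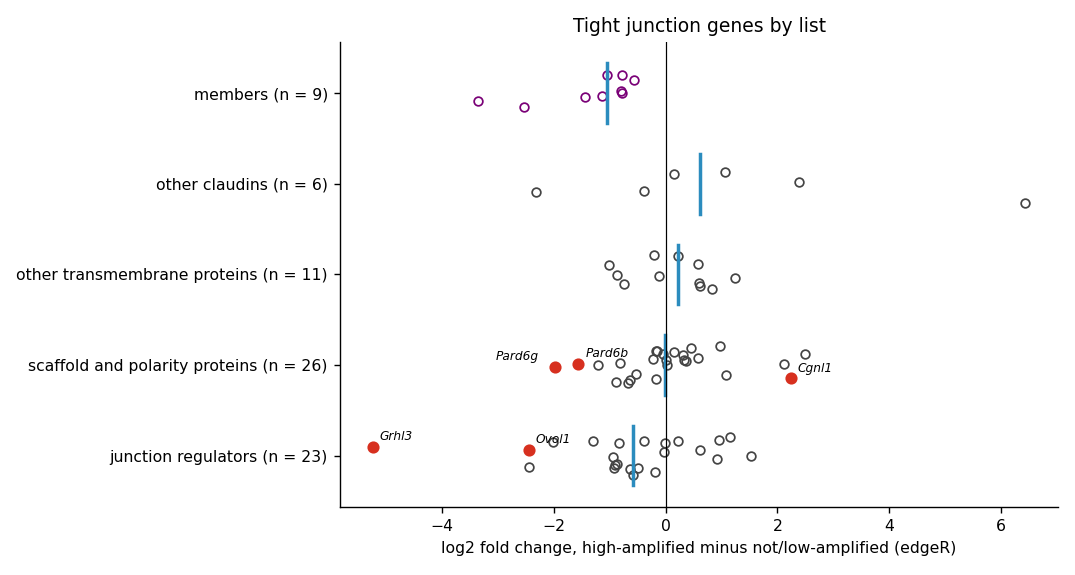
Log2 fold changes, high-amplified minus not/low-amplified epithelial tumours (edgeR), of the 9 genes and of 66 other tight junction genes in 4 lists, including 23 junction regulators. Each circle is a gene, filled where called, and bars are medians. The 9 genes all lie below 0 (median −1.04), and the other lists spread to both sides.

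Between histotypes, 1 of the 66 other genes tested was called, lower in ASQC, against 0.0207% of all genes called lower and 1.01% higher. Wnk4, a kinase that acts on claudins and ion transport in the kidney, had 14.1 and 5.84 normalized counts in the ASQC tumours and 381 to 1423 in AC(NST), a log2 fold change of −6.05 (95% interval −7.89 to −4.21, adjusted p = 0.00962, edgeR). It lost the call with amplification label as a covariate (−5.20, adjusted p = 0.0872, edgeR) and without MS1210.1 or MS1349.1 (adjusted p = 0.118 and 0.177, edgeR), while MS1166.1, at 381, was 27.1-fold above the higher of the ASQC tumours. Klf4, a factor of epidermal differentiation, was 3208 and 911 in ASQC and at most 780.4 in AC(NST), and was not called (log2 fold change 2.52, adjusted p = 0.212, edgeR). Grhl3 and Ovol1 also lay higher in both ASQC than in every AC(NST) tumour, with MS1166.1 highest of the latter, and were not called.

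The sarcoma separated the 9 genes into 3 sorts. It is a single tumour, so no test was made, and its intervals are exact Poisson intervals for counting error alone. Cldn3 had 14 counts, Cldn7 and Ocln 5 each, Tjp3 3, Cldn4 2 and Cldn8 0. The median of the epithelial tumours was 280-fold above the sarcoma for Cldn3 (95% interval 167 to 513), 254-fold for Cldn7 (109 to 783) and 174-fold for Ocln (74.5 to 536). For Cldn4 the ratio was 1085 (300 to 8963) and for Tjp3 239 (81.9 to 1161), both from 3 or fewer counts. Cldn8, set at 3 counts, had a median at least 36.1-fold higher in the epithelial tumours and at least 17.2-fold higher in the lowest of them, MS1163.1.

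F11r was reduced but present in the sarcoma, with 146 counts, a normalized count of 201 against an epithelial median of 2602, 12.9-fold lower (95% interval 11.0 to 15.3). Tjp1 was within the epithelial range at 4418 (median 4372), and Cldn1, at 4538, was above the highest epithelial tumour, 1.18-fold. In all, 7 of the 9 genes were below every epithelial tumour, against 21.2% of the 14007 genes tested. Of these 7, 6 lay more than 10-fold below the lowest, against 3.25%. The same 7 lay below, Tjp1 within and Cldn1 above the epithelial range under each of 3 other scalings.

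The genes around them in the sarcoma also lay below, within or above the epithelial range, in other proportions. The luminal markers Epcam, at 52.4, and Cdh1, at 78.6, were 168-fold and 114-fold below the epithelial median, and the 7 luminal markers were below all 8 epithelial tumours. Named after their values were seen, the repressors Zeb1 and Zeb2 stood at 9129 and 65272, 9.74-fold and 19.7-fold above the highest epithelial tumour. Snai2, at 116, was 1.42-fold above that maximum, and Snai1, at 84.2, was within the range. The junctional adhesion molecules of endothelium and other cells, Jam2 and Jam3, were 1058 and 1349, 3.28-fold and 8.47-fold above that maximum, and the scaffold gene Mpdz was 5.80-fold above it. Over all 79 other tight junction genes, 32 were below the epithelial range, 33 within and 14 above. Of the 33 within, 15 were claudins. Those with 0 counts in the sarcoma had a lowest epithelial value of 0 too, so they could not lie below. Of the 14 above, Pard3, Amot, Amotl2 and Tjap1 fell within the range when scaled by total count. The 79 were not filtered by count, so the 21.2% of genes tested is no background for this split. The mesenchymal markers summed to 619281 and 5 of the 9 were above every epithelial tumour. Of these, Des was nearly level with MS1218.2 (2005 against 1998) and fell within the range when scaled by total count. Vim, Col1a1, Fn1 and Pdgfrb were within the range, each below MS1218.2. The share of all genes above the range was not computed. Of the genes with an E-box in a promoter window, Cldn4, Cldn7, Ocln and Tjp3 were near 0 in the sarcoma and F11r was not. Cldn3, also near 0, had none, and neither did Cldn1 and Tjp1.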

How the data were processed

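RNA from 9 whole frozen mammary tumours was sequenced (76 cycles per the labels, 1 library each). Reads were aligned by the authors with STAR to mouse genome build 38, allowing 3 mismatches and unique positions, and HTSeq counts per gene were deposited. The strand option of counting is not given in the sources used here. The deposited signal files, for the 8 epithelial tumours, equal those counts divided by a median-of-ratios size factor. The sarcoma's counts were divided by its median ratio to the geometric mean of these 8 over 13508 genes. Gene positions and exon lengths come from GENCODE M21, which placed 18420 of 18484 genes.

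Groups follow the labels. Counts were tested with edgeR 4.0.16 (TMM, quasi-likelihood, R 4.3.3) on the 8 epithelial tumours, keeping genes that reached 10 counts in 2 tumours (histotype) or in 3 (amplification, parity), and p-values were Benjamini-Hochberg adjusted over all genes tested. A call needs an adjusted p under 0.05 and a fold change over 2. Since samples are single tumours and 2 carry a mouse number in common, p-values measure the spread between these samples. Alternatives were DESeq2 1.42.0, limma 3.58.1 on log2(normalized count + 1), other scaling, filters and covariates, subsets, and each tumour left out. The fit was also run on simulated data. Of genes given a log2 fold change of 2 in size, it called 35% by histotype, 52% by amplification and 42% by parity. At a size of 4 it called 84%, 95% and 95%. Calls among unchanged genes numbered 7, 7 and 10. A gene that was not called may therefore still differ.

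The 9 genes and all lists were chosen with earlier results of these data known. Named beside the 9 were the other tight junction genes called by histotype or amplification, the 6 with the smallest p in each, and other claudins with at least 100 normalized counts in a tumour. Totals of 12501225 to 23912429 counts allow up to 3 counts where 0 were seen, 2.11 to 4.14 normalized counts by tumour.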

Additional observations from a re-analysis of the deposited data

Results flagged for a closer look

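In groups of 5 or 6 tumours, a value was marked where its gap to the nearest other was a large enough part of the group's range (Dixon's test at the 95% level). Of 63 groups examined, 19 were marked. Chance marks about 1 in 20 independent groups, a rate that cannot be set against this count, because the groups share tumours and the genes beside the 9 were named for their results in these tumours or, among claudins, for a high count. Of the 9 genes, 5 were marked, each time for MS1166.1 within AC(NST): Cldn4 at 10013, Cldn7 at 4387, Cldn8 at 786, Ocln at 3174 and F11r at 4771 normalized counts. It is also the 1 AC(NST) labelled not/low-amplified. Among the other tight junction genes MS1166.1 was marked within AC(NST) for Cldn23 at 343, Grhl3 at 127, Ovol1 at 377, Pard6b at 652 and Pard6g at 419.9, genes named through a contrast in which MS1166.1 takes part.

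MS1163.1 was marked for Cldn10 at 2229 within AC(NST) and within the high-amplified tumours. MS1213.1 was marked in both groups for Wnk4 at 1423. MS1218.2 was marked for Cldn5 at 377 in both groups and for Klf4 at 780.4 within the high-amplified tumours. MS1155.3 was marked there for Grhl3 at 43.8, and MS1210.1 for Klf4 at 3208 among the epithelial tumours of parous mice.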

How the results depend on the processing

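No paired analysis between groups was possible because replicate numbers follow accession order and name no shared animal or batch. The mouse number that MS1163.1 and MS1163.2 share gives no pairing either, since both tumours carry the same histotype, amplification and parity labels. The 7 genes of the 9 that lay below the epithelial range in the sarcoma stayed 7 under each other scaling. Histotype calls, 146 higher and 3 lower in ASQC, became 301 and 217 with DESeq2, 31 higher with the filter at 3 tumours, 92 higher with the MS1163 tumours summed, 2 and 0 in parous mice alone, 0 and 0 with the amplification covariate, and 5 lower with limma. Leaving out each tumour gave 12 to 206 higher and 0 to 47 lower, with 0 to 1 of the 9 genes called.

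Amplification calls, 61 higher and 68 lower, became 902 and 689 with DESeq2, 118 higher with limma, 139 lower without a filter, 18 and 13 with the MS1163 tumours summed, 7 and 33 in AC(NST) alone, and 0 and 0 with the parity covariate or in parous mice alone. Leaving out each tumour gave 0 to 751 higher and 1 to 504 lower. Of the 9 genes, 0 were called, 5 with DESeq2, 2 without a filter (Cldn4 and Cldn8), 1 each with limma, the filter at 2 tumours and the MS1163 tumours summed (Cldn4, Cldn8 and Cldn4), and 0 to 4 with a tumour left out. Parity calls, 0 and 0, became 417 and 94 with DESeq2, and 0 to 49 higher and 0 to 98 lower with a tumour left out. The cause of these shifts was not tested.

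Signs turned by histotype with the amplification covariate for Cldn3 (−0.88), Cldn7 (−0.71), Ocln (−0.80), Tjp3 (−0.38), F11r (−0.37), Cgnl1 (0.10), Cldn12 (−0.031), Cldn2 (0.25) and Cldn23 (−0.92), in parous mice for Cldn3 (−0.35) and with limma for Cldn5 (0.061). With a tumour left out the histotype range was −0.033 to 0.42 for Cldn3, −0.16 to 3.56 for Cldn8 and −0.98 to 0.36 for Cldn5. By amplification, Tjp1 (0.024) and Cldn5 (−0.34) turned within AC(NST), Cldn5 with limma (−0.51), and Cldn5 ranged from −1.12 to 0.43 with a tumour left out. By parity, with the amplification covariate and within high-amplified tumours, Cldn1 (−0.16 and −0.15), Cldn8 (−0.47 and −0.45), Ocln (−0.24 and −0.23) and Tjp1 (−0.25 and −0.23) turned. Depth limits the 6 genes with 14 or fewer counts in the sarcoma.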
